A study of Homo sapiens with 8 samples.

Results

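The core spliceosome was followed through SFPQ silencing in MDAH and SKOV3 ovarian cancer cells. The set holds 55 genes, chosen by name as protein components of the particles that carry out splicing, out of 20503 genes named on the array and 15552 that could be tested. They fall into 14 genes of the Sm and LSm rings, 4 of U1, 15 of U2, 11 of the U4/U6.U5 tri-snRNP, 8 of the Prp19 complex and the DEAH-box helicases, and 3 of the exon junction core. The rule names the genes and uses no measured value, but it was set with earlier results of these arrays known.

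MDAH and SKOV3 are established lines of epithelial ovarian cancer grown from tumour cells. Total RNA of each line was hybridized to 4 single-colour Agilent arrays, 8 in all. The control group of a line holds control 1 and control 2, cells in which SFPQ was not silenced. The labels call both of these control shRNA samples while the supplementary methods list the untransduced parental cells beside the sh-ctrl cells, so no more than the absence of silencing was assumed. The SFPQ-silenced group of a line holds 1 sample with sh-SFPQ#2 and 1 with sh-SFPQ#3, which are different short hairpin RNAs against the same mRNA, so that the arrays of a silenced group differ in reagent as well as in sample. The labels name no platinum drug for any of the 8 samples. Stable silenced clones could not be raised in the study, and nothing in the labels says that the samples of a group came from separate cultures. P-values therefore measure the spread between these samples, which may be technical in part.

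The spliceosome removes introns from precursor mRNA. It is built anew on each intron from small nuclear ribonucleoproteins (snRNPs), each made of a small nuclear RNA, a ring of Sm or LSm proteins and proteins of its own. U1 recognises the start of the intron and U2 its branch site, the tri-snRNP of U4, U6 and U5 brings in the RNAs of the catalytic centre, the Prp19 complex steadies the activated form, and helicases drive the steps between these states. The exon junction complex is left on the spliced mRNA. SFPQ is itself a nuclear RNA-binding protein that was isolated with splicing factors and is a component of paraspeckles.

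Levels are log2 signals on a scale where the 75th percentile of every array is 0. A change is the mean of the silenced arrays minus the mean of the controls of the same line, in log2 units with its standard error, from a limma fit over all 15552 genes and 4 groups of 2 arrays, and a gene passed where its Benjamini-Hochberg adjusted p was under 0.05. The difference between the lines is the change in MDAH minus the change in SKOV3. Each of the 55 members was well above background on all 8 arrays. The signal at the 75th percentile was 496 and 483 on the MDAH controls, 405 and 244 on the MDAH silenced arrays, 438 and 387 on the SKOV3 controls and 463 and 466 on the SKOV3 silenced arrays. The MDAH silenced arrays were thus dimmer than their controls, and the part of this in the results below was not tested.

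The silenced gene was read first. SFPQ had levels of 3.64 and 3.91 on the controls and 2.45 and 2.10 on the silenced arrays of MDAH cells, and of 4.84 and 4.66 on the controls and 3.01 and 2.48 on the silenced arrays of SKOV3 cells. Silenced arrays lay below both controls in each line, and sh-SFPQ#3 gave the lower level of the silenced pair in both. The change was -1.50 ± 0.23 in MDAH (adjusted p = 0.0328) and -2.01 ± 0.23 in SKOV3 (adjusted p = 0.0299). The direction held in all 18 alternatives of each line, and the call was lost in 8 of 18 in MDAH (adjusted p up to 0.218, without MDAH control 1) and in 7 of 18 in SKOV3 (up to 0.157, with the line fitted alone). The lines were also checked against epithelial markers. Of 12 such markers 8 were well above background on all 8 arrays (EPCAM, KRT7, KRT8, KRT18, KRT19, PAX8, CLDN3 and CLDN4) and MSLN on none. The epithelial list summed to between 395 and 621 times the 75th percentile signal on the 8 arrays, most of all from KRT18. Of 4 mesenchymal markers VIM, CDH2 and ZEB1 were well above background on all 8 arrays. Their summed signal, mostly VIM, was 187 and 181 on the MDAH controls and 226 and 251 on the MDAH silenced arrays, and 370 and 385 on the SKOV3 controls and 307 and 286 on the SKOV3 silenced arrays, so that it was higher after silencing in MDAH and lower in SKOV3. Of 5 leukocyte markers on the array PTPRC, CD68 and CD14 were well above background on all 8 arrays and CD3E on none. Their summed signal, mostly CD68, was 2.77 and 3.66 on the MDAH controls, 5.67 and 5.95 on the MDAH silenced arrays, and between 2.0 and 3.07 in SKOV3. Of 6 fibroblast markers COL1A1 was well above background on all 8 arrays and COL3A1, LUM and PDGFRA on none, and their sum, mostly COL1A1, was 0.60 and 0.71 on the MDAH controls, 1.21 and 1.61 on the MDAH silenced arrays, 0.42 and 0.28 on the SKOV3 controls and 0.76 and 0.92 on the SKOV3 silenced arrays. Of 4 endothelial markers CDH5 was on all 8, and their sum stayed between 0.17 and 0.37. The part of these markers in the results below was not tested.

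Core spliceosome genes had on the whole slightly higher levels after SFPQ silencing in MDAH cells and slightly lower ones in SKOV3 cells, and few single genes stood out. In MDAH cells 45 of 55 members, 81.8%, had higher means after silencing, beside 59.8% of all genes tested, with a median change of 0.24 (all genes 0.10). In SKOV3 cells 43 of 55, 78.2%, had lower means, beside 54.0% of all genes, with a median of -0.24 (all genes -0.04). Under quantile normalization 36 of 55 were higher in MDAH and 16 of 55 in SKOV3, beside 55.1% and 51.4% of all genes. The deposited value table gave the same counts, beside 55.1% and 51.5%. With MDAH control 1 left out, 36 of 55 were higher in MDAH, beside 57.3% of all genes. Of 3001 genes at the middle levels of the members, between their lower and upper quartile, 71.7% were higher in MDAH and 63.7% lower in SKOV3. In MDAH no member passed the test, with the smallest adjusted p at 0.0857 for DDX46, where 2.03% of all genes passed, and 8 members had p under 0.05 before adjustment, that is 14.5% of them beside 23.1% of all genes. In SKOV3 no member passed either, with the smallest adjusted p at 0.0619 for TXNL4A, where 0.997% of all genes passed. Before adjustment 15 members, 27.3%, had p under 0.05 beside 19.5% of all genes, 13 of them lower and 2 higher. Averaged over both lines 2 members passed, DDX46 upwards and TXNL4A downwards, which is 3.64% of the members beside 5.66% of all genes.

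**Figure D1:**
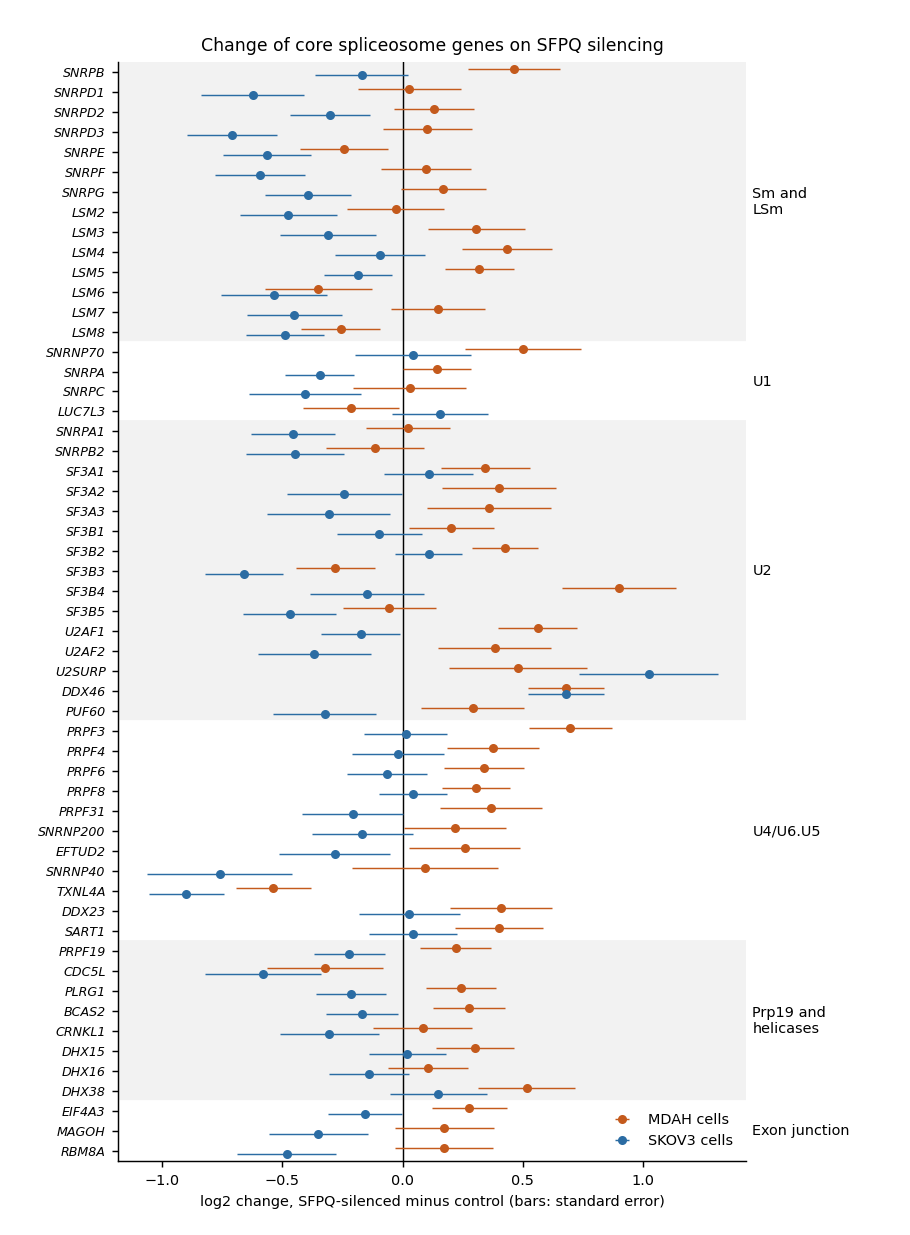
The log2 change of each of the 55 members (horizontal axis, silenced minus control mean) in MDAH (orange) and SKOV3 (blue) cells, grouped by subcomplex, with bars for the standard error of the fit. For 53 of 55 members the MDAH point lies to the right of the SKOV3 point, U2SURP and DDX46 are the highest points in SKOV3, SF3B4 is the highest in MDAH, and TXNL4A is the lowest in both lines.

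The groups of arrays were also set against each other without a model. For 27 members both MDAH silenced arrays lay above both controls, 49.1% beside 35.6% of all genes, and for 5 they lay below, 9.09% beside 21.4%. For 34 members both SKOV3 silenced arrays lay below both controls, 61.8% beside 32.1% of all genes, and for 4 above, 7.27% beside 25.9%. In both lines at once 4 members lay above (SF3A1, SF3B2, U2SURP and DDX46, all of U2), which is 7.27% beside 12.4% of all genes, and 5 lay below (LSM6, LSM8, SF3B3, TXNL4A and CDC5L), 9.09% beside 10.3%. For 8 members (LSM5, SNRPA, U2AF1, PRPF19, PLRG1, BCAS2, EIF4A3 and MAGOH) the silenced arrays lay above the controls in MDAH and below them in SKOV3, 14.5% beside 8.39% of all genes. These shares moved with the level of a gene. Of the genes at the middle levels of the members 45.6% lay above in MDAH, 40.0% below in SKOV3 and 14.5% above in MDAH and below in SKOV3, so that the first share of the members was close to that of these genes and the last the same.

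The difference between the lines was above 0 for 53 of 55 members, 96.4%, beside 59.2% of all genes, with a median of 0.44 beside 0.12. LUC7L3 and U2SURP were the exceptions. Under quantile normalization the median was 0.23, with 51 of 55 above 0, beside 0.02 and 52.1% for all genes, and in the deposited value table it was 0.23, with 51 of 55, beside 0.02 and 51.9%. No member passed the test of this difference (smallest adjusted p = 0.267, U2AF1), a test that 0.0965% of all genes passed, and 7 members, 12.7%, had p under 0.05 before adjustment beside 14.9% of all genes. The level of a gene moved with this measure: over the 3001 genes at the middle levels of the members, with means between 2.85 and 5.67, the median change was 0.17 in MDAH and -0.09 in SKOV3, and 76.6% had a difference above 0 with a median of 0.26.

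Single pairs of arrays showed how much of this rested on which array. The median over the 55 members of a silenced array minus a control ranged from 0.06 (sh-SFPQ#2 minus control 2) to 0.38 (sh-SFPQ#3 minus control 1) in MDAH, and from -0.41 (sh-SFPQ#3 minus control 2) to -0.08 (sh-SFPQ#2 minus control 1) in SKOV3. The MDAH controls differed from each other by as much: control 2 was above control 1 for 51 of 55 members, with a median of 0.24, where the median of all genes was 0.04 and that of genes at the members' middle levels 0.11. Without control 1 the median change of the members in MDAH was 0.10, and without control 2 it was 0.34. In SKOV3 it was -0.33 without sh-SFPQ#2 and -0.13 without sh-SFPQ#3. The SKOV3 controls were close, with control 2 above control 1 for 31 of 55 members and a median of 0.01. Of the SKOV3 silenced arrays sh-SFPQ#3 was below sh-SFPQ#2 for 46 of 55 members, with a median of -0.24.

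**Figure D2:**
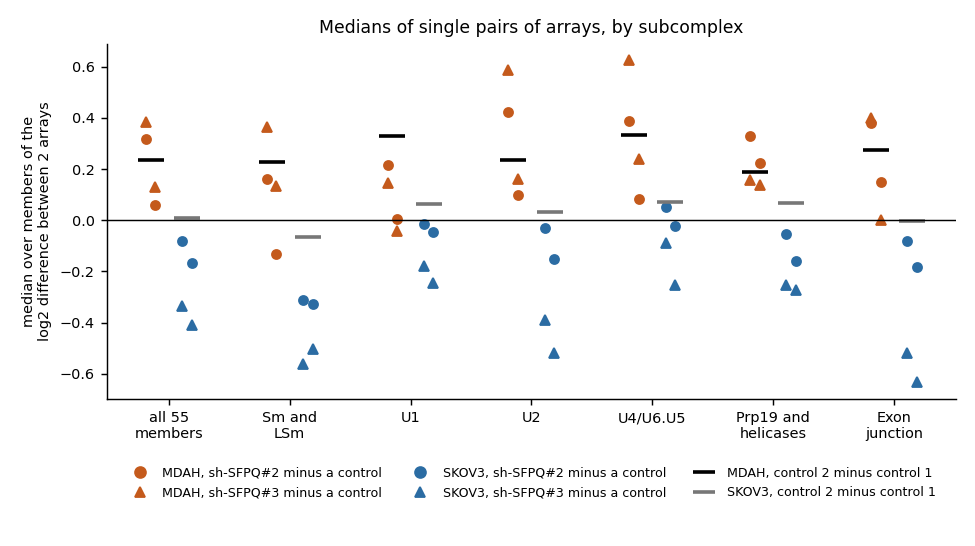
Median over the members of each subcomplex of the log2 difference between 2 arrays (vertical axis): sh-SFPQ#2 (circles) and sh-SFPQ#3 (triangles) minus each control of MDAH (orange) and SKOV3 (blue) cells, and control 2 minus control 1 (bars, black for MDAH and grey for SKOV3). Over all 55 members the 4 MDAH pairs lie between 0.06 and 0.38 and the 4 SKOV3 pairs between -0.41 and -0.08, and the MDAH controls differ by 0.24.

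TXNL4A, the small Dim1 protein of U5, had the lowest change of the set in both lines. Its level was 5.28 and 5.45 on the controls and 4.89 and 4.76 on the silenced arrays of MDAH cells, and 6.60 and 6.52 on the controls and 5.77 and 5.55 on the silenced arrays of SKOV3 cells. All silenced arrays were below all controls of their line, and sh-SFPQ#3 was the lower of each pair, as it was for SFPQ. The change was -0.54 ± 0.16 in MDAH (adjusted p = 0.121), -0.90 ± 0.16 in SKOV3 (adjusted p = 0.0619) and -0.72 ± 0.11 on average over both lines, which passed (adjusted p = 0.0229). A second TXNL4A probe, dimmer and also well above background on all 8 arrays, read 2.84 and 2.81 on the MDAH controls against 2.24 and 2.07 on the silenced arrays, and 4.19 and 4.24 on the SKOV3 controls against 3.29 and 2.74. Its changes were -0.66 in MDAH and -1.20 in SKOV3.

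DDX46, the human Prp5, is the RNA helicase that acts with U2 at the branch site. Its level was 0.02 and 0.10 on the controls and 0.78 and 0.70 on the silenced arrays of MDAH cells, and 0.94 and 0.83 on the controls and 1.42 and 1.71 on the silenced arrays of SKOV3 cells. The silenced arrays were above the controls in both lines without overlap. The change was 0.68 ± 0.16 in MDAH (adjusted p = 0.0857) and 0.68 ± 0.16 in SKOV3 (adjusted p = 0.104), and the average of 0.68 ± 0.11 passed (adjusted p = 0.0268). DDX46 had 1 probe.

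Both calls depended on which array was left out. They held without MDAH sh-SFPQ#2 (adjusted p = 0.0222 for TXNL4A and 0.0320 for DDX46) and without SKOV3 sh-SFPQ#2 (0.0237 and 0.0223). Without MDAH control 1, MDAH control 2, MDAH sh-SFPQ#3, SKOV3 control 1, SKOV3 control 2 or SKOV3 sh-SFPQ#3, each left out alone, neither gene passed (adjusted p between 0.0506 and 0.107 for TXNL4A and between 0.0519 and 0.132 for DDX46), while the averages stayed between -0.76 and -0.66 and between 0.61 and 0.71. Without SKOV3 sh-SFPQ#2 SF3B3 and U2SURP passed as well in the average, and TXNL4A, U2SURP and SNRNP40 in SKOV3 alone. With no filter on dim probes DDX46 did not pass (adjusted p = 0.0518) and TXNL4A did (adjusted p = 0.0458).

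U2SURP, an SR-related protein found with U2 snRNP, had the highest average change of the set, and it did not pass. Its level was -0.01 and 0.06 on the controls and 0.29 and 0.72 on the silenced arrays of MDAH cells, and 0.91 and 0.75 on the controls and 1.44 and 2.26 on the silenced arrays of SKOV3 cells. Silenced arrays were above controls in both lines, and sh-SFPQ#3 was the higher of each pair, most clearly in SKOV3. The change was 0.48 ± 0.29 in MDAH (adjusted p = 0.354), 1.02 ± 0.29 in SKOV3 (adjusted p = 0.141) and 0.75 ± 0.20 on average (adjusted p = 0.0776). It passed in 3 of 17 alternatives (smallest adjusted p = 0.0257, without SKOV3 sh-SFPQ#2).

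**Figure D3:**
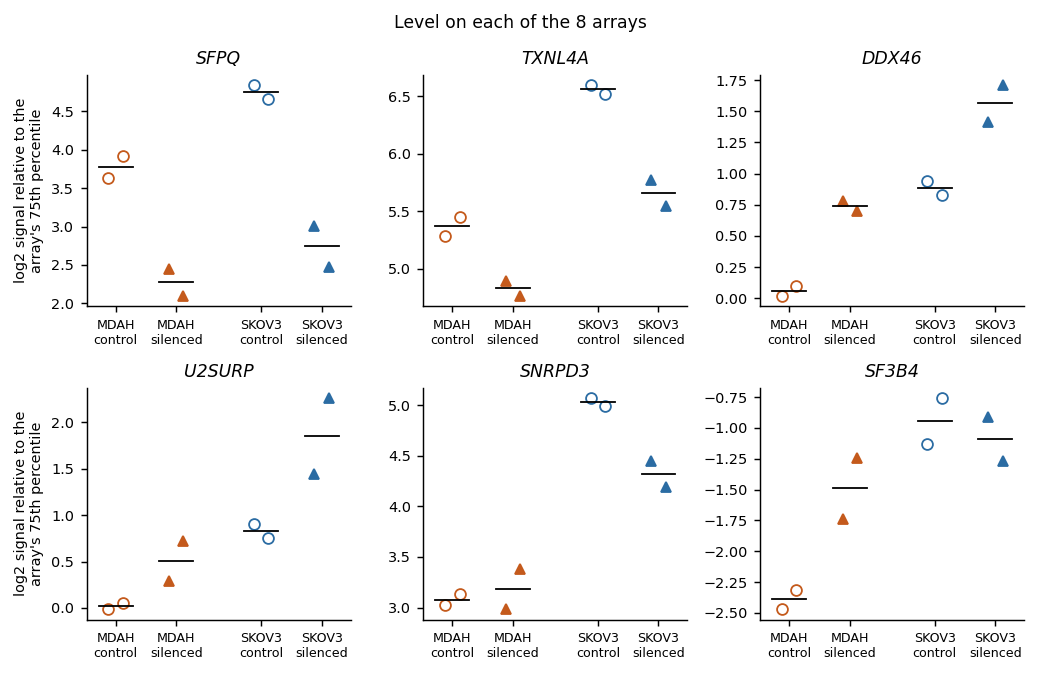
Level on each of the 8 arrays (vertical axis, log2 signal, with 0 at the 75th percentile of the array) of SFPQ and 5 members, with controls as open circles, silenced samples as triangles, and a line at the mean of each group of 2. TXNL4A lies lower and DDX46 and U2SURP higher on the silenced arrays of both lines, while SNRPD3 lies lower in SKOV3 alone and SF3B4 higher in MDAH alone.

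The promoters of these 3 members are shown because they had the largest average changes of the set. Each is 300 bases of the RefSeq promoter table on GRCh38.p14, from 250 bases before to 50 after the annotated start, read along the gene's strand: TXNL4A at chr18:79988514-79988813 (minus strand), DDX46 at chr5:134758529-134758828 (plus strand) and U2SURP at chr3:143001320-143001619 (plus strand). Capitals mark matches, on either strand, to 5 searched motifs: the TATA box TATAAA, the CCAAT box of NF-Y, the ETS core CCGGAA, the E-box CACGTG and the palindromic NRF1 motif with any base at its centre.
TXNL4A: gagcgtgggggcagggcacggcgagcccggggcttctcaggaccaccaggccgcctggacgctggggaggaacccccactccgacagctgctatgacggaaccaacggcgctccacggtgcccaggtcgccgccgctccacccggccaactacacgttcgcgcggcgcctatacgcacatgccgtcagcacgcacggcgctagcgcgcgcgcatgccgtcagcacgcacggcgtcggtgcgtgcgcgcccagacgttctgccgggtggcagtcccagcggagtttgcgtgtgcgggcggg
DDX46: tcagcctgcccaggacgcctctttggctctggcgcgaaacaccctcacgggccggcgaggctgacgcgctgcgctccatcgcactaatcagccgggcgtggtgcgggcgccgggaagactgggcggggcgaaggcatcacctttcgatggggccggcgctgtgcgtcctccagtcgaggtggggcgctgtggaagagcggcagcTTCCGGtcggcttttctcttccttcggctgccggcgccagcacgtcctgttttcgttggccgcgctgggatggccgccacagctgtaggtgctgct
U2SURP: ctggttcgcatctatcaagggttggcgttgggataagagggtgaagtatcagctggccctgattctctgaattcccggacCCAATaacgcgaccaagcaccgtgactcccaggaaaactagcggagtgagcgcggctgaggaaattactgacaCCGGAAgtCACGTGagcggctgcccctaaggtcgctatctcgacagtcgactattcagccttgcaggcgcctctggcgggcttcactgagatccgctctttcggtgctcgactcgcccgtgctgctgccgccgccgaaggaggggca
No match was in the TXNL4A window. DDX46 held 1 CCGGAA, on the opposite strand, and U2SURP held the CCAAT box, the ETS core and the E-box, the last of these just after the ETS core. Of the 55 members 50 had a promoter of this length. CCGGAA was in 29 of these 50 (58.0%), against 27.5% of the 12071 tested genes with such a promoter and 17.6% of all 27305. By particle it was in 7 of 12 of the Sm and LSm genes, 1 of 4 of U1, 10 of 13 of U2, 4 of 10 of the tri-snRNP, 5 of 8 of the Prp19 complex and helicases and 2 of 3 of the exon junction core. The NRF1 motif was in 10 (20.0%, against 10.9% and 6.28%), CCAAT in 20 (40.0%, against 36.5% and 35.7%), CACGTG in 4 (8%, against 9.79% and 7.43%) and TATAAA in 1 (2%, against 6.67% and 12%). The median GC content was 61.0% in the members and 64.7% in the tested genes. A match is a description of letters, and none was tied to a change here.

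The Sm and LSm genes leaned lower in SKOV3. Sm proteins form the ring around U1, U2, U4 and U5 RNAs, and LSM2 to LSM8 the ring on U6. All 14 had lower means in silenced SKOV3 cells, beside 54.0% of all genes and 63.7% of genes at the middle levels of the members. Their median was -0.46, and none passed (smallest adjusted p = 0.125, SNRPD3). For 12 of the 14, 85.7%, both silenced SKOV3 arrays lay below both controls, beside 32.1% of all genes and 40.0% of genes at the middle levels of the members. The 7 Sm genes had a median of -0.56 and the 7 LSm genes of -0.45. In MDAH the median of the 14 was 0.12, and its sign turned under quantile normalization, in the deposited value table and without MDAH sh-SFPQ#3. There 10 had higher means, 71.4% beside 59.8% of all genes and 71.7% of genes at the middle levels of the members. MDAH control 2 was above control 1 for all 14, with a median of 0.23. All 14 had a difference between the lines above 0, with a median of 0.55. The share above 0 was 59.2% of all genes and 76.6% of genes at the middle levels of the members.

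SNRPD3, which encodes SmD3, had the widest difference of the rings. Its level was 5.07 and 4.99 on the controls and 4.45 and 4.19 on the silenced arrays of SKOV3 cells, and 3.03 and 3.13 on the controls and 2.98 and 3.38 on the silenced arrays of MDAH cells. The SKOV3 groups did not overlap and the MDAH groups did. The change was -0.71 ± 0.19 in SKOV3 (adjusted p = 0.125) and 0.10 ± 0.19 in MDAH, with a difference of 0.81 ± 0.26 (adjusted p = 0.273). SNRPD1, SNRPE and SNRPF, which encode SmD1, SmE and SmF, had SKOV3 changes of -0.62, -0.56 and -0.59, with adjusted p between 0.167 and 0.193.

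LSM6 had the lowest average of the rings. It read 3.19 and 3.30 on the controls and 3.15 and 2.64 on the silenced arrays of MDAH cells, and 4.34 and 4.38 on the controls and 4.02 and 3.63 on the silenced arrays of SKOV3 cells. Every silenced array was below the controls of its line, with an average change of -0.44 ± 0.16 (adjusted p = 0.136). LSM8, the subunit that sets the nuclear LSm ring apart from the cytoplasmic one, was likewise below in both lines, with changes of -0.26 ± 0.16 in MDAH and -0.49 ± 0.16 in SKOV3 (average adjusted p = 0.102). LSM4 had the highest average, 0.17 ± 0.13 (adjusted p = 0.451), from a change of 0.43 in MDAH and -0.09 in SKOV3.

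Probes of 1 ring gene, SNRPE, differed in the sign of the average change. SNRPE had 4 probes well above background on all 8 arrays, and the 3 brighter ones had average changes of -0.40, -0.27 and -0.30. The dimmest read between -2.50 and -0.83 and had an average change of 0.26, with 0.51 in SKOV3 where the others had between -0.56 and -0.46. The dimmest of 3 SNRPG probes, well above background on all 8 arrays, had an average change of -0.61 where the brightest had -0.11, with -0.31 and 0.17 in MDAH, and in both lines its sh-SFPQ#2 array was the lowest. In MDAH probes of SNRPD1 (0.03 and -0.04) and of LSM2 (-0.03 and 0.14) also differed in sign. The reference annotation names 11 pseudogenes after SNRPE, 20 after SNRPG and 20 after SNRPC, and 1 or more after 21 of the 55 members, so that signal from near-identical copies cannot be told apart here.

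U1 has 4 members, and none passed in a silencing comparison. SNRNP70, the U1-70K protein that binds the stem of U1 RNA, read 1.05 and 1.71 on the controls and 1.72 and 2.03 on the silenced arrays of MDAH cells, and 2.17 and 2.28 on the controls and 2.32 and 2.22 on the silenced arrays of SKOV3 cells. In MDAH control 1 stood apart, below the other 3 arrays, and in SKOV3 the groups overlapped. Its change was 0.50 ± 0.24 in MDAH and 0.04 ± 0.24 in SKOV3 (average 0.27, adjusted p = 0.349). The average of SNRNP70 was 0.11 without MDAH control 1 and 0.44 without MDAH control 2. SNRPA, the U1A protein, had silenced arrays above the controls in MDAH (0.14 ± 0.14) and below them in SKOV3 (-0.35 ± 0.14), with a difference of 0.49 ± 0.20 (adjusted p = 0.329). SNRPC, which encodes U1C, had the lowest average of the 4, -0.19 ± 0.17 (adjusted p = 0.505), and its SKOV3 sh-SFPQ#3 array at 5.97 was well below the other 3 of that line, between 6.63 and 6.77. Without that array the average of SNRPC was -0.02, and without SKOV3 sh-SFPQ#2 it was -0.35. LUC7L3, a Luc7-like protein associated with U1, ran the other way from most members, with -0.22 ± 0.20 in MDAH and 0.16 ± 0.20 in SKOV3.

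In U2 4 of 15 members, 26.7%, had silenced arrays above the controls in both lines, and they were the only such members of the 55. Beside them stood 12.4% of all genes and 11.7% of genes at the middle levels of the members. Beside DDX46 and U2SURP the 4 members were SF3A1 and SF3B2, subunits of the complexes that tether U2 at the branch site. Their changes were 0.34 and 0.43 in MDAH and 0.11 and 0.11 in SKOV3. Neither passed. Over the 15 genes the median was 0.36 in MDAH, with 12 higher, and -0.24 in SKOV3, with 11 lower. Higher in MDAH were 80% of them, beside 59.8% of all genes and 71.7% of genes at the middle levels of the members. Lower in SKOV3 were 73.3%, beside 54.0% and 63.7%. For 8 of the 15, 53.3%, both SKOV3 silenced arrays lay below both controls, beside 32.1% and 40.0%. The difference was above 0 for 14, 93.3% beside 59.2% and 76.6%, with a median of 0.41. Without SKOV3 sh-SFPQ#2 the SKOV3 median of U2 was -0.49, without SKOV3 control 1 -0.36 and without SKOV3 sh-SFPQ#3 -0.13, and without MDAH control 1 the MDAH median was 0.21.

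SF3B3 ran the other way from DDX46, U2SURP, SF3A1 and SF3B2. It read 3.97 and 4.05 on the controls and 3.82 and 3.65 on the silenced arrays of MDAH cells, and 3.88 and 3.95 on the controls and 3.41 and 3.10 on the silenced arrays of SKOV3 cells. Silenced arrays were below controls in both lines, with an average change of -0.47 ± 0.12 (adjusted p = 0.065), which passed in 5 of 18 alternatives (smallest adjusted p = 0.0331, with a trended prior), and a second probe had an average change of -0.20. SF3B1, the scaffold of the same complex and a gene mutated in several cancers, had 0.20 ± 0.18 in MDAH and -0.10 ± 0.18 in SKOV3.

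SF3B4, another subunit of that complex, had the widest difference between the lines of the 55. Its level was -2.47 and -2.31 on the controls and -1.74 and -1.24 on the silenced arrays of MDAH cells, and -1.13 and -0.76 on the controls and -0.91 and -1.27 on the silenced arrays of SKOV3 cells. MDAH silenced arrays were above both controls and the SKOV3 groups overlapped. The change was 0.90 ± 0.24 in MDAH (adjusted p = 0.104) and -0.15 ± 0.24 in SKOV3 (adjusted p = 0.757), with a difference of 1.05 ± 0.34 (adjusted p = 0.27). U2AF1 and U2AF2, the subunits of the factor that reads the end of the intron, had 0.56 ± 0.16 and 0.38 ± 0.24 in MDAH and -0.17 ± 0.16 and -0.37 ± 0.24 in SKOV3. SNRPB2, the U2B″ protein, had probes of opposite sign, with average changes of -0.28 for the brighter and 0.10 for the dimmer, both well above background on all 8 arrays.

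In the tri-snRNP 10 of 11 members, 90.9%, had higher means in silenced MDAH cells, TXNL4A being the exception. The share was 59.8% of all genes and 71.7% of genes at the middle levels of the members. The median of the 11 was 0.34. This median was 0.19 without MDAH control 1 and 0.53 without MDAH control 2. In SKOV3 7 of 11, 63.6%, had lower means, beside 54.0% of all genes and 63.7% of genes at the middle levels of the members. The SKOV3 median was -0.07, and its sign turned under quantile normalization, in the deposited value table and without SKOV3 sh-SFPQ#3. MDAH control 2 was above control 1 by a median of 0.33 over these genes. PRPF3, a U4/U6 protein, read 0.22 and 0.55 on the controls and 1.07 and 1.1 on the silenced arrays of MDAH cells, and 1.12 and 1.19 on the controls and 1.29 and 1.05 on the silenced arrays of SKOV3 cells. The MDAH groups did not overlap and the SKOV3 groups did. Its change was 0.70 ± 0.17 in MDAH (adjusted p = 0.0922) and 0.01 ± 0.17 in SKOV3, with an average of 0.36 ± 0.12 (adjusted p = 0.126).

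SNRNP40, a WD40 protein of U5, had the widest difference of its particle. It read 2.16 and 1.87 on the controls and 1.72 and 0.80 on the silenced arrays of SKOV3 cells, where sh-SFPQ#3 was far below the others, and its change was -0.76 ± 0.30 in SKOV3 and 0.09 ± 0.30 in MDAH (difference 0.86 ± 0.43, adjusted p = 0.384). Without SKOV3 sh-SFPQ#3 the difference was 0.40, and without SKOV3 sh-SFPQ#2 it was 1.32. PRPF8, the U5 scaffold of the catalytic centre, had 0.31 ± 0.14 in MDAH and 0.04 ± 0.14 in SKOV3, and SNRNP200, the Brr2 helicase that unwinds U4 from U6, had 0.22 ± 0.21 and -0.17 ± 0.21. In SKOV3 SNRNP200 read 4.91 with sh-SFPQ#2 and 4.40 with sh-SFPQ#3, on either side of controls at 4.84 and 4.81. In MDAH it read 5.18 and 4.84 with these hairpins, against controls at 4.80 and 4.79.

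In the Prp19 complex and the helicases 7 of 8 had higher means in MDAH, with a median of 0.23 (87.5% beside 59.8% of all genes). In SKOV3 6 of 8 had lower means, with a median of -0.19 (75% beside 54.0%). All 8 had a difference above 0, with a median of 0.38 (all genes 59.2%). Of genes at the middle levels of the members 71.7% were higher in MDAH, 63.7% lower in SKOV3 and 76.6% had a difference above 0. PLRG1, a WD40 protein of the complex, had silenced arrays at 2.52 and 2.44 above controls at 2.34 and 2.14 in MDAH, and at 2.47 and 2.37 below controls at 2.63 and 2.63 in SKOV3. The difference was 0.46 ± 0.20 (adjusted p = 0.347). PRPF19, the ubiquitin ligase of the complex, and BCAS2 followed the same order of arrays, with differences of 0.44 and 0.45.

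CDC5L, a core subunit of that complex, was the exception in MDAH. It read 2.37 and 2.52 on the controls and 2.32 and 1.92 on the silenced arrays of MDAH cells, and 2.98 and 3.08 on the controls and 2.75 and 2.14 on the silenced arrays of SKOV3 cells. Silenced arrays were below controls in both lines, with an average of -0.45 ± 0.17 (adjusted p = 0.155), and a second probe was not well above background on any array. DHX38, the Prp16 helicase, which remodels the spliceosome after the first step of splicing, had the highest average of the 8, 0.33 ± 0.14 (adjusted p = 0.197), with 0.52 in MDAH and 0.15 in SKOV3. The DHX38 average was 0.22 without MDAH control 1 and 0.45 without MDAH control 2.

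The exon junction genes were higher in MDAH and lower in SKOV3 in all 3 cases. Of all genes 59.8% were higher in MDAH and 54.0% lower in SKOV3. Among genes at the middle levels of the members these shares were 71.7% and 63.7%. EIF4A3, the RNA clamp of the complex, had 0.28 ± 0.16 in MDAH and -0.16 ± 0.16 in SKOV3, and MAGOH 0.17 ± 0.21 and -0.35 ± 0.21. Arrays of both genes lay above the controls in MDAH and below them in SKOV3, as did 8.39% of all genes and 14.5% of genes at the middle levels of the members. RBM8A, the partner of MAGOH, read 5.80 and 6.26 on the controls and 6.18 and 6.22 on the silenced arrays of MDAH cells, and 7.13 and 7.09 on the controls and 6.80 and 6.45 on the silenced arrays of SKOV3 cells. In MDAH control 1 was low and control 2 above both silenced arrays, and in SKOV3 the groups did not overlap. Its difference was 0.65 ± 0.29 (adjusted p = 0.345), and a second probe gave an average change of 0.15 where the first gave -0.16.

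Between the control cells of the lines more members passed than on silencing, as did more of all genes. Most of the members that passed were lower in MDAH. This comparison shares its control arrays with the silencing comparisons, so that its values are given for themselves. Of the 55 members 28 passed, 50.9%, where 8941 of all 15552 genes passed. Lower in MDAH than in SKOV3 were 25, 45.5% of the 55 beside 30.7% of all genes. The other 3 were higher, 5.45% beside 26.8%. Among the 3001 genes at the members' middle levels 1115 passed lower in MDAH and 544 higher. The median of the members was -0.49 (all genes -0.05, genes at the members' middle levels -0.26) and 45 of 55 were lower in MDAH. SNRPD3 had the largest difference, -1.95 ± 0.19 (adjusted p = 0.000201), from 3.03 and 3.13 in MDAH against 5.07 and 4.99 in SKOV3. DDX23, the Prp28 helicase that hands the start of the intron from U1 to U6, differed by -1.46 ± 0.21 (adjusted p = 0.00117) and SF3B4 by -1.45 ± 0.24 (adjusted p = 0.00213).

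The 3 members that were higher in MDAH came from different particles. LSM8 differed by 1.14 ± 0.16 (adjusted p = 0.00113), from 4.85 and 5.05 in MDAH against 3.85 and 3.76 in SKOV3. CRNKL1, a scaffold protein bound to the Prp19 complex, differed by 0.90 ± 0.21 (adjusted p = 0.00898), a call that was lost without MDAH control 1 (adjusted p = 0.0602) or SKOV3 control 1 (adjusted p = 0.0616). PRPF8 differed by 0.72 ± 0.14 (adjusted p = 0.00475). By particle, members lower in MDAH that passed were 5 of 7 in the Sm ring, 2 of 7 in the LSm ring, 2 of 4 in U1, 6 of 15 in U2, 6 of 11 in the tri-snRNP, 1 of 8 in the Prp19 complex and helicases, and 3 of 3 in the exon junction core. Beside these, 30.7% of all genes passed lower in MDAH, as did 1115 of the 3001 genes at the members' middle levels.

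**Figure D4:**
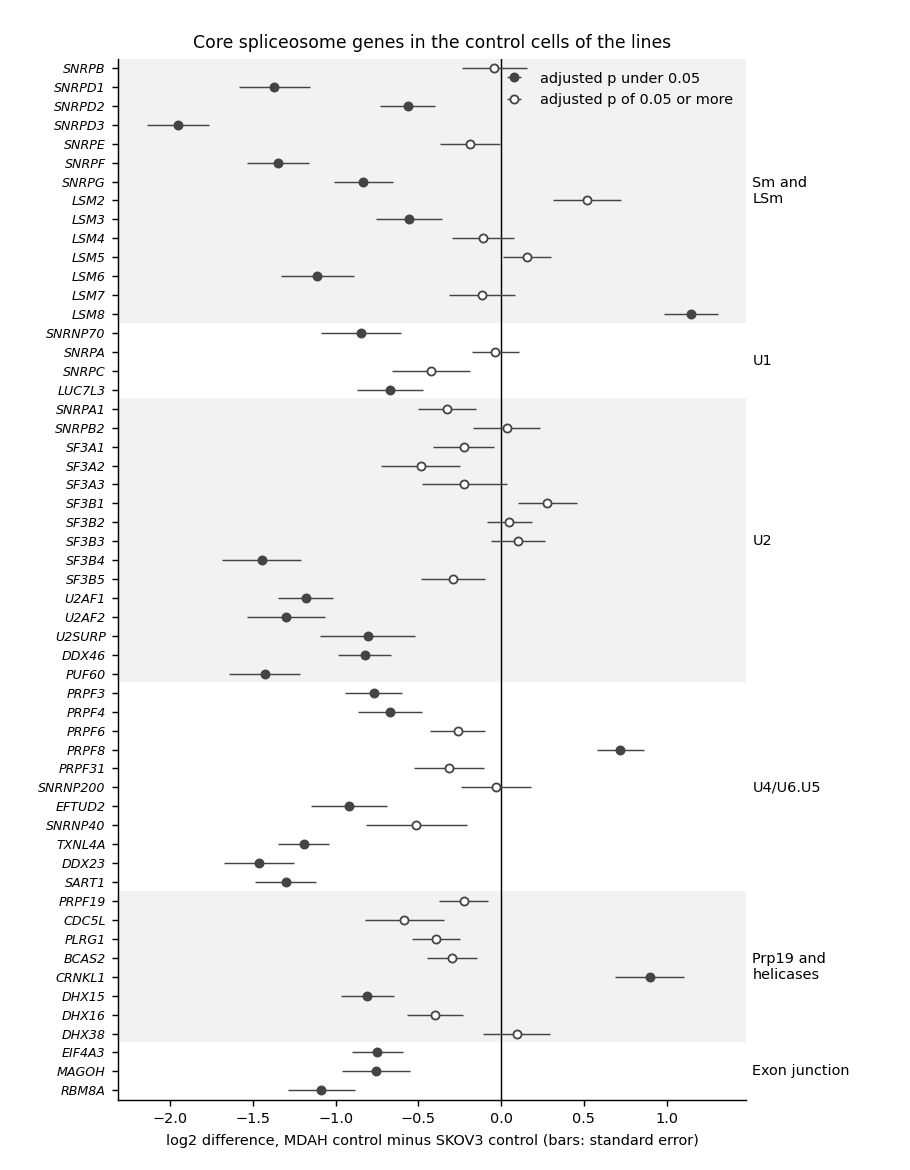
The log2 difference between the control cells of the lines (horizontal axis, MDAH mean minus SKOV3 mean) for each of the 55 members, grouped by subcomplex, with bars for the standard error and filled points for members that passed. Filled points lie to the left of 0 for 25 members and to the right for LSM8, PRPF8 and CRNKL1.

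Genes around the core were described in the same way. Of 63 other spliceosome proteins, none passed in MDAH, in SKOV3, in the average or in the difference, tests that 2.03%, 0.997%, 5.66% and 0.0965% of all genes passed. A difference above 0 was found for 56 of them, 88.9%, beside 59.2% of all genes and 76.6% of genes at the middle levels of the members, with a median of 0.37 beside 0.12 and 0.26, and with medians of 0.17 in MDAH and -0.11 in SKOV3. CWC27, a cyclophilin-type protein of the spliceosome, had the lowest average. It read 2.57 and 2.70 on the controls and 1.53 and -0.02 on the silenced arrays of MDAH cells, and 2.26 and 2.27 on the controls and 1.34 and 0.23 on the silenced arrays of SKOV3 cells. In both lines sh-SFPQ#3 was far below sh-SFPQ#2, and both were below the controls, with an average of -1.68 ± 0.38 (adjusted p = 0.0534). CWC27 passed in 6 of 17 alternatives: with normexp (adjusted p = 0.0143), with genes above background on all 8 arrays (0.0328), with a trended prior (0.0293), with the replicate number as a block (0.0044), without MDAH sh-SFPQ#2 (0.0150) and without SKOV3 sh-SFPQ#2 (0.0379). SAP18, a protein of a complex bound to exon junctions, had the highest, 0.74 ± 0.20 (adjusted p = 0.0775), with silenced arrays above the controls in both lines, and it passed in 2 of 17, with normexp (adjusted p = 0.0399) and without SKOV3 sh-SFPQ#2 (0.0341).

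The 12 genes of the minor spliceosome, which removes a rare class of introns, had a median difference of 0.19, with 10 above 0. This was 83.3%, beside 59.2% of all genes and 76.6% of genes at the middle levels of the members. Their median was 0.17 in MDAH, and 6 of 12 were lower in SKOV3, beside 54.0% and 63.7%. ZRSR2 had the highest average, 0.30 ± 0.14 (adjusted p = 0.215), and SNRNP48 the lowest, -0.30 ± 0.14 (adjusted p = 0.23), where a second probe gave 0.13. The 33 genes of snRNP biogenesis transcribe and process the small nuclear RNAs and load the Sm ring. In MDAH 30 were higher, 90.9% beside 59.8% of all genes and 71.7% of genes at the middle levels of the members. The 33 had medians of 0.28 in MDAH and -0.11 in SKOV3, and a median difference of 0.38. SNAPC4, of the complex that starts snRNA transcription, had the highest average, 0.43 ± 0.18 (adjusted p = 0.178), and INTS9, of the Integrator complex that cuts snRNA ends, the lowest, -0.44 ± 0.14 (adjusted p = 0.115). None of the 45 genes on these last lists passed in a silencing comparison. Those tests were passed by 2.03% of all genes in MDAH, 0.997% in SKOV3, 5.66% in the average and 0.0965% in the difference. INTS9 passed in the average in 1 of 17 alternatives.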

How the data were processed

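The 8 single-colour Agilent arrays, 4 per cell line and all on 1 slide, fell into 4 groups of 2. Per the file headers, the authors extracted the spots with Feature Extraction 11.5.1.1 (the submitters' notes name 10.7.3.1) and deposited background-subtracted intensities on a linear scale, not normalized between arrays. A further table of log2 values deposited by the authors, quantile-normalized and centred on each probe's median as a comparison with the scanner files showed, served as an alternative.

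Control spots and outlier spots (209 to 310 per array) were left out, log2 signals of a probe's spots averaged, and each array shifted so that its 75th percentile was 0. Of 50599 probes 28174 were named through RefSeq accessions, giving 20503 genes, of which the brightest probe was used. The 15552 genes with both arrays of at least 1 group well above background were fitted in all 4 groups with limma 3.58.1 (R 4.3.3), with 4 residual and 2.69 prior degrees of freedom, and p-values adjusted by Benjamini-Hochberg over all of them. The fit was also run on simulated data with independent arrays and changes larger than that of any member. That run does not speak to changes as small as those of the members. Precision is limited by having 2 arrays in a group. No spot was saturated. On the slide the controls of a line came before its silenced samples, in a row for each line, and position cannot be told apart from group. Promoters were matched by gene symbol, for 50 of 55 members.

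Members and lists were chosen with earlier results of these data known. Named were SFPQ, members that passed on silencing, the highest and lowest average and the widest difference between the lines in each subcomplex, the 3 highest and 3 lowest that passed between controls, members whose probes differed in sign, and the highest and lowest average of each further list; other members are named for their role or as exceptions to a count, after their values were seen. SNRPN, SNAPC1, LSM10 and MAGOHB, of the further lists, were also named after their values were seen. Listed markers that were not tested were MSLN, CD3E, LYZ (not named on the array), PECAM1, COL1A2, COL3A1, LUM and PDGFRA.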

Additional observations from a re-analysis of the deposited data

Results flagged for a closer look

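4 medians are given here because every silenced array of MDAH lay above each control of its line while every silenced array of SKOV3 lay below. The difference between the lines itself was not tested for these medians. Over all 55 members the median difference between the lines was 0.44, with pairs of arrays between 0.06 and 0.38 in MDAH and between -0.41 and -0.08 in SKOV3. For U2 it was 0.41 (0.10 to 0.59 in MDAH, -0.52 to -0.03 in SKOV3), for the Prp19 complex and helicases 0.38 (0.14 to 0.33, -0.27 to -0.06) and for the exon junction core 0.52 (0.00 to 0.40, -0.63 to -0.08). The same order of arrays held for the median of all genes tested (0.05 to 0.14 in MDAH, -0.06 to -0.01 in SKOV3, difference 0.12) and of genes at the middle levels of the members (0.10 to 0.23, -0.15 to -0.04, difference 0.26), and for the 63 other spliceosome proteins and the 33 genes of snRNP biogenesis, so that it does not set these 4 medians apart, and the MDAH controls differed from each other by a median of 0.24 over the 55 members.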

How the results depend on the processing

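The median change of the 55 members kept its sign in MDAH, in SKOV3, in the difference between the lines and between the controls under every alternative run, and so did the median difference between the lines of each of the 6 subcomplexes. Its size moved with the scaling. The median difference was 0.23 under quantile normalization and in the deposited value table and 0.59 with arrays centred on their median, a setting that moved the median of all genes in MDAH from 0.10 to 0.21 and the split of calls there from 65 higher and 251 lower to 100 and 168. Between the controls the median was -0.27 (quantile and deposited table) and -0.64 (median-centred). Leaving out single arrays gave 0.10 (without MDAH control 1) to 0.34 in MDAH, -0.33 (without SKOV3 sh-SFPQ#2) to -0.13 (without SKOV3 sh-SFPQ#3) in SKOV3, 0.34 to 0.58 for the difference and -0.61 to -0.38 between the controls.

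In SKOV3, where no member passed, 1 did (TXNL4A) with normexp, with genes above background on all 8 arrays or with a trended prior, and 0 to 3 when an array was left out. In the average 4 members passed with normexp (DDX46, TXNL4A, SF3B3, U2SURP), 3 with genes above background on all 8 arrays and 3 with a trended prior (DDX46, TXNL4A, SF3B3 in both), 1 without a filter on dim probes (DDX46 was lost), and 0 to 4 when an array was left out. With the replicate number as a block 2 members passed in SKOV3 (TXNL4A, U2SURP) and 4 in the average (with SF3B3). The deviations of same-numbered arrays correlated at 0.08 for the controls 1 and 0.36 for the sh-SFPQ#2 arrays. For silenced arrays the number is that of the hairpin, so that same-numbered ones share a reagent across the lines. Controls share only a number. The main fit did not pair samples, so its average over both lines counts silenced arrays that share a hairpin as independent. Next brightest probes turned the average of CDC5L to 0.31 (a probe not above background), of RBM8A to 0.15 and of SNRNP48 to 0.13, and EIF4A3 went to -0.00775 without MDAH control 1, with 0.13 as its highest value when an array was left out.

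Of all genes, 316 passed in MDAH, with 498 under normexp, 114 under the stricter filter, 143 with the line fitted alone, 862 with the block and 9 to 1091 without an array. In SKOV3 155 passed, with 460, 39 without a filter, 0 with the line alone, 273 with the trend, 688 with the block and 13 to 595. In the average 880 passed, with 370 without a filter, 1382 with the trend, 1770 with the block and 32 to 1686. In the difference 15 passed, with 29 under quantile normalization, 23 median-centred, 9 with normexp, 28 in the deposited table, 0 with the stricter filter, the trend or the block, and 0 to 182. SFPQ kept its direction in all 18 alternatives of each line and lost its call in 8 in MDAH (adjusted p up to 0.218) and 7 in SKOV3 (up to 0.157). The cause of these moves was not tested.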

Other observations

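SNRPN, which encodes the neuronal Sm protein SmN in place of SmB, set the lines apart more than any other gene of the lists around the core, and it was picked out after its values were seen. It was well above background on all 4 SKOV3 arrays, at 0.32, 0.47, 0.30 and 0.16, and on none of the 4 MDAH arrays. The SKOV3 controls were 38.6-fold above the lowest signal of any probe that was well above background on the MDAH control arrays. A probe that is not well above background can lie above that lowest signal, so this is a rough guide and no strict bound. SNRPN entered the fit through its SKOV3 arrays alone, so no p-value is given for it. SNAPC1, of the complex that starts snRNA transcription, and LSM10, of the ring on U7 RNA, were likewise lower in MDAH controls. Their differences were -3.40 ± 0.22 (adjusted p = 3.79e-05) and -2.06 ± 0.15 (adjusted p = 6.19e-05). MAGOHB, a copy of MAGOH, was higher, with 1.47 ± 0.17 (adjusted p = 0.000436), where MAGOH had -0.76 ± 0.21 (adjusted p = 0.0176). SNAPC1, LSM10 and MAGOHB were also picked out after their values were seen, and their adjusted p-values do not allow for that choice. Of all 15552 genes 8941 passed this comparison. None of the 4 passed in a silencing comparison.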
